A study of Mus musculus with 15 samples.

Results

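The TGF-beta pathway of microglia was followed through 10 genes: the ligand Tgfb1, its carrier on the microglial surface Nrros, the receptors Tgfbr1 and Tgfbr2, the signal carriers Smad2, Smad3 and Smad4, and the inhibitors Smad7, Ski and Skil. The genes were taken by symbol, as a list drawn up with earlier results of these data known, and all 10 were found among the 32372 genes of the count matrix and among the 14260 genes that had enough counts to be tested. The samples were single-cell RNA sequencing libraries of microglia, enriched with CD45 beads from dissociated cortex and hippocampus of 15 male hTfR KI mice on C57BL/6J, 3.5 months old. All mice, controls included, carried the hTfR KI allele, a knock-in of human transferrin receptor sequence. They had been dosed once, at 10 mg/kg, with ATV:4D9, an antibody against the microglial receptor TREM2 whose Fc part binds the transferrin receptor, or with ATV:RSV, a control antibody built on that Fc. There were 5 groups of 3 mice, of which 4 had ATV:4D9 (taken on day 1, 7, 14 or 28 after the dose) and 1 had ATV:RSV (taken on day 1), and each of the 3 batches contained 1 mouse from each. Days 7, 14 and 28 had no ATV:RSV mice of their own, so the day 1 controls served for all 4 comparisons.

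TGF-beta is made as a latent complex that must be opened before it can bind. On microglia the complex is held at the cell surface by NRROS (also called LRRC33), and released TGF-beta joins the type II receptor to the type I receptor, which phosphorylates SMAD2 and SMAD3. These pair with SMAD4, enter the nucleus and bind DNA, while SMAD7 blocks the receptor and SKI and SKIL repress SMAD-bound genes; Smad7 and Skil are themselves well-known targets of the pathway. In the brain, TGF-beta signalling keeps microglia in their resting, tissue-specific state, and genes such as P2ry12, Tmem119 and Sall1 depend on it.

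The matrix held 102043 cells and 707518630 unique molecular identifiers (UMIs, counted molecules), with 5667 to 7596 cells and 32341960 to 70307384 UMIs per mouse. The 3 day 1 ATV:4D9 mice stood apart from the other 12. Their cells had a median of 8201.5 to 8995.5 UMIs, against 4975 to 5750 in ATV:RSV, and 87.3% to 93.5% of them lay in deposited cluster 2, against 1.12% to 3.23% in the other mice. They also held 1398 to 2015 cells with a UMI of the cycling genes Mki67 or Top2a, against 10 to 48 in the other 12. Their median share of mitochondrial UMIs was 3.96% to 4.496%, against 3.11% to 3.38% in ATV:RSV and 3.49% to 4.04% at day 7. Without the cells with a Mki67 or Top2a UMI, 7 pathway genes were called at day 1, as were 9472 of 14119 genes tested. The part of the mitochondrial share in the results was not tested. Among 10 microglial markers 8 were lower and 1 was higher at day 1 in the test described below, but none was near 0. Of all genes tested, 34.6% were called lower and 34.7% higher there, and the marker counts that follow stand beside these shares. Of 100747 distinct barcode sequences, 1283 occurred in more than 1 library. Cells with markers of another type were few: 726 cells had UMIs of at least 3 markers of 1 other type, 484 of them of border-associated macrophages. At day 1 all 5 oligodendrocyte markers and 4 of 5 neuron markers were lower, 4 of 8 macrophage markers were higher, and of 4 tested monocyte markers 2 were higher and 1 lower. In UMIs per 1000000, the summed oligodendrocyte markers were 46.3 to 61.3 in ATV:RSV and 28.3 to 31.0 at day 1, and those of neurons 8.81 to 10.9 and 4.45 to 6.04. Endothelial markers went from 20.2 to 27.4 down to 9.13 to 14.1, B cell markers from 29.1 to 36.1 down to 22.1 to 24.2, and monocyte markers from 4.51 to 11.5 up to 13.9 to 17.98. Of 5 endothelial markers 1 was called higher and 1 lower, and of 2 tested B cell markers 1 was called lower. The median log2 fold change of those 2 was 0.13. The sums take no factor of the trimmed-mean (TMM) scaling described below (0.878 to 0.906 at day 1, 1.05 to 1.06 in ATV:RSV). A gene unmoved under that scaling therefore lies lower in them at day 1. The sums of the macrophage markers overlapped, at 17.5 to 21.1 and 18.4 to 26.8. Without those 726 cells the counts of pathway genes called below were unchanged in every comparison.

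Levels are given as CPM: the UMIs of a gene summed over the cells of a mouse, per 1000000 UMIs of that mouse after trimmed-mean (TMM) scaling. Groups were compared with limma-voom over all 15 mice, and calls were made where the p adjusted over all 14260 genes (Benjamini-Hochberg) was under 0.05. Each pathway gene rested on 953 to 41276 UMIs per mouse. In summed counts, fewer expressing cells and less RNA per cell cannot be told apart. Shares of cells at equal depth are given further on, and they do not separate them either.

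At day 1 after ATV:4D9, 7 of the 10 pathway genes were lower than in ATV:RSV and none was higher. Over all genes tested 69.2% were called at day 1, 34.6% lower and 34.7% higher. The 7 were the ligand (Tgfb1), the type I receptor (Tgfbr1), Smad3, Smad4 and all 3 inhibitors (Smad7, Ski and Skil), and their levels were 0.687 to 0.814 of the control level. Nrros, Tgfbr2 and Smad2 were not called. The median log2 fold change was -0.30 for the 10 genes and -0.05 for all genes tested.

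**Figure D1:**
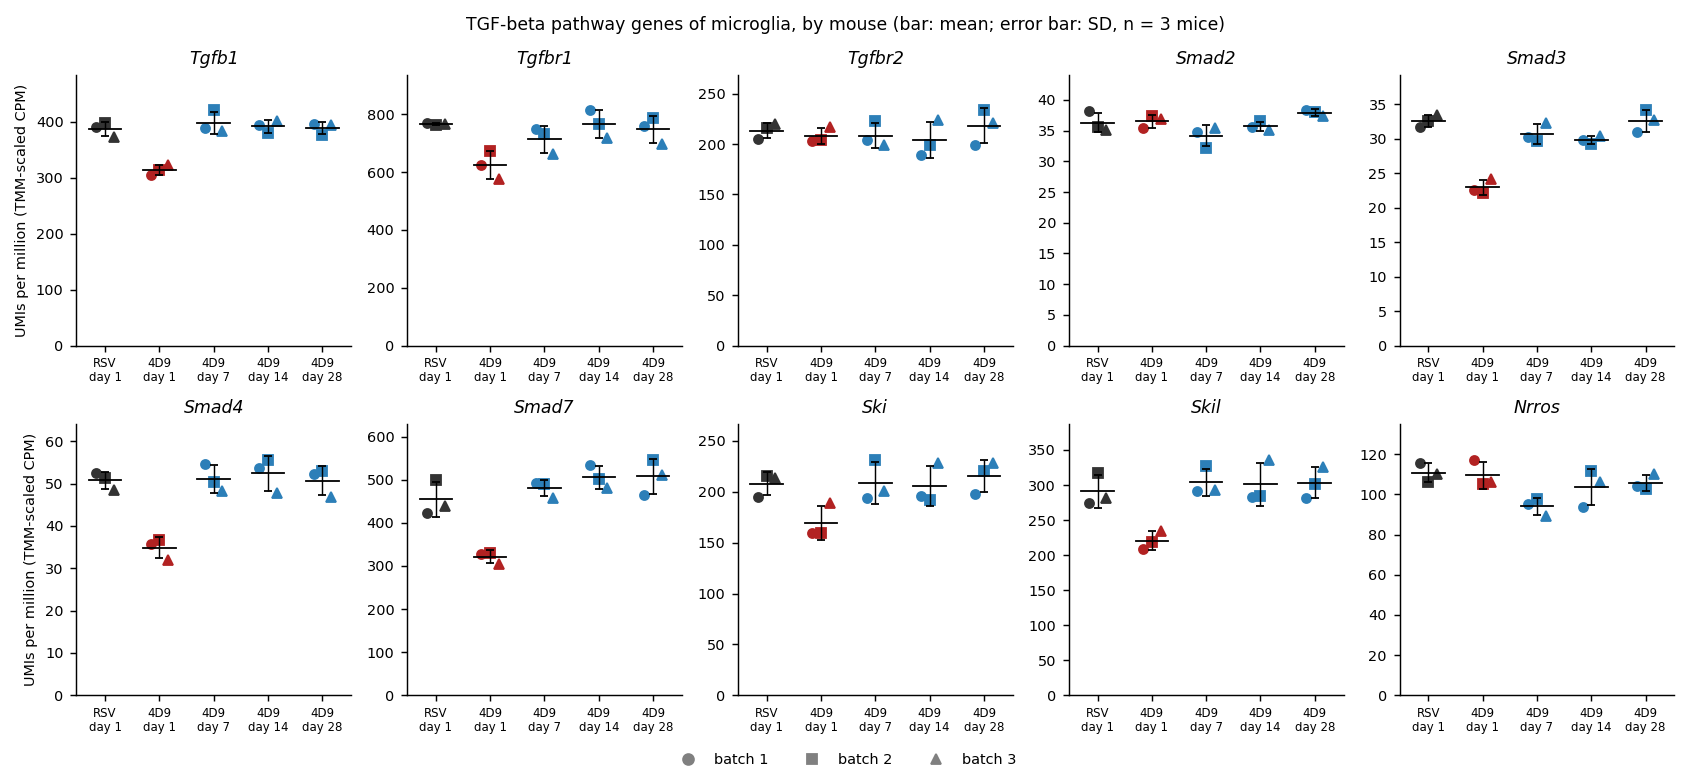
Level of each of the 10 genes in each mouse, in TMM-scaled CPM on the vertical axis from 0, by group on the horizontal axis; symbols mark the batch, bars the mean and error bars the SD of 3 mice. The 3 day 1 ATV:4D9 mice (red) lie below all 3 ATV:RSV mice (black) for 7 genes, and the later groups (blue) return to the control range for most.

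Tgfb1 encodes the ligand that microglia release and respond to. It lies at chr7:25687002-25705077 (mm10, plus strand). Its level was 392, 397 and 372 CPM in the 3 ATV:RSV mice and 305, 314 and 323 CPM in the 3 day 1 mice. Every day 1 mouse lay below every control, with a log2 fold change of -0.30 (95% CI -0.40 to -0.20, adjusted p 2.86e-05). Within the 3 batches the log2 ratio of the day 1 mouse to its control was -0.36, -0.34 and -0.20.

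Nrros, at chr16:32142785-32165594 on the minus strand, stood at 116, 106 and 110.0 CPM in the controls and at 117, 105 and 106 CPM at day 1. The groups overlapped, and the log2 fold change of -0.02 had an interval from -0.15 to 0.12 (adjusted p 0.821). The ligand was thus called lower while its carrier was not; the difference between both changes was not tested.

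Tgfbr1, at chr4:47353222-47414931 on the plus strand, encodes the type I receptor, the kinase that phosphorylates the SMADs. It had 770.3, 764 and 766 CPM in the controls, a range narrower than that of any other group, and 623, 674 and 578 CPM at day 1. The groups did not overlap, and the log2 fold change was -0.30 (95% CI -0.44 to -0.16, adjusted p 0.000826).

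Tgfbr2, at chr9:116084293-116175360 on the minus strand, encodes the type II receptor that binds the ligand. It had 205, 216 and 219.5 CPM in the controls and 203, 204 and 217 CPM at day 1. The groups overlapped, with a log2 fold change of -0.04 whose interval ran from -0.18 to 0.11 (adjusted p 0.648). That interval and the one of Tgfbr1 share the stretch from -0.18 to -0.16.

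Among the signal carriers Smad3 and Smad4 were lower and Smad2 was not called. Smad3 (chr9:63646767-63757994, minus strand) had 31.6, 32.5 and 33.5 CPM in the controls and 22.6, 22.1 and 24.2 CPM at day 1. Smad4 (chr18:73639009-73703780, minus strand), the shared partner of the receptor-activated SMADs, had 52.5, 51.3 and 48.6 CPM in the controls and 35.8, 36.8 and 32.1 CPM at day 1. For both genes all 3 day 1 mice lay below all controls, and the log2 fold changes were -0.51 (95% CI -0.62 to -0.39, adjusted p 5.21e-07) and -0.54 (95% CI -0.70 to -0.39, adjusted p 6.88e-06). Smad2 (chr18:76241580-76310963, plus strand), the close relative of Smad3, had 38.2, 35.6 and 35.1 CPM in the controls and 35.4, 37.4 and 36.8 CPM at day 1. These values overlapped, and the log2 fold change of 0.01 had an interval from -0.10 to 0.11 (adjusted p 0.892), which does not meet that of Smad3.

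All 3 inhibitors were lower at day 1. Smad7 (chr18:75367529-75395935, plus strand) had 424, 499.9 and 440.0 CPM in the controls and 328, 331 and 303 CPM at day 1, a log2 fold change of -0.50 (95% CI -0.65 to -0.35, adjusted p 9.25e-06). Skil (chr3:31095058-31122577, plus strand) had 274, 317 and 282 CPM in the controls and 208, 219 and 235 CPM at day 1, a log2 fold change of -0.40 (95% CI -0.57 to -0.23, adjusted p 0.00035). The related repressor Ski (chr4:155154075-155222592, minus strand) had the control value nearest to the day 1 range, with 195, 215 and 214 CPM in the controls and 159, 159.8 and 189 CPM at day 1. Its log2 fold change was -0.30 (95% CI -0.49 to -0.12, adjusted p 0.00609). The day 1 and control values did not overlap for any of the 3, as for 35.9% of all genes tested, which lay lower at day 1 without overlap. Within batches the log2 ratio of these 3 inhibitors, Tgfb1, Tgfbr1, Smad3 and Smad4 was negative in all 3 batches, as was that of Tgfbr2, which was not called.

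The direction at day 1 depended on what the counts were set against. TMM takes most genes as unmoved, and it left the median log2 difference over all genes at -0.05. Against all UMIs of a mouse that median was -0.29, and all 10 pathway genes were called lower, with a median of -0.54; 74.7% of all genes were called. Against the number of cells, which gives UMIs per cell, the median of all genes was 0.32 and none of the 10 was called lower. Then 62.7% of all genes were called, and Tgfbr2 (log2 fold change 0.32), Smad2 (0.37) and Nrros (0.34) were called higher. Relative to the median of all genes under each scaling, those 3 lay close to it and the other 7 lay below it. On UMIs per cell, Smad4 (-0.18), Smad3 (-0.15), Smad7 (-0.14) and Skil (-0.04) kept a negative sign without passing the test, and Tgfb1 (0.06), Tgfbr1 (0.06) and Ski (0.06) had a positive one. The counts give no way to separate sequencing depth per cell from RNA content per cell, and the 2 cannot be told apart.

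**Figure D2:**
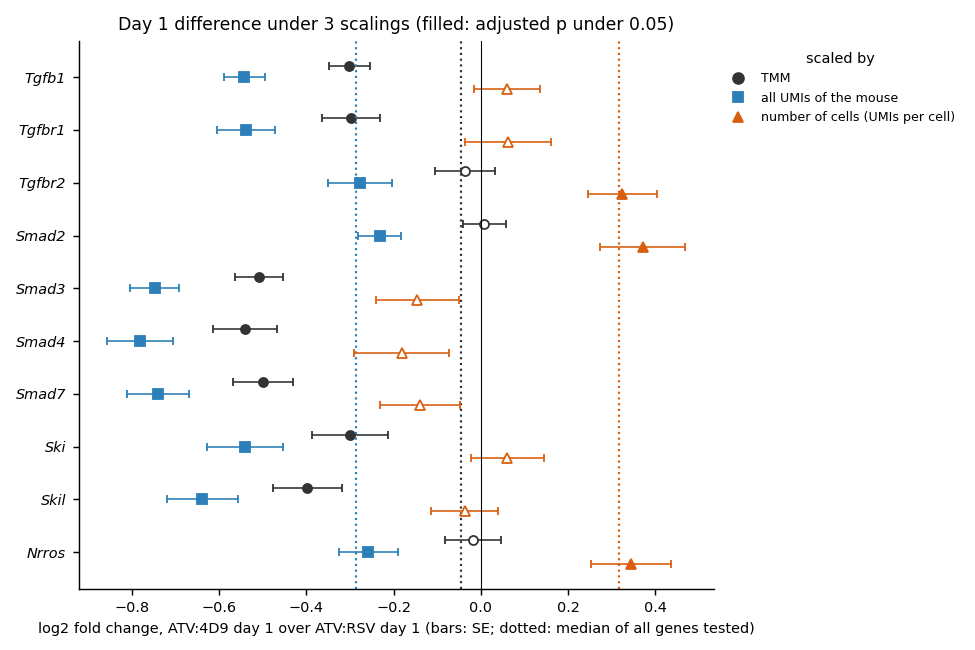
Log2 fold change at day 1 over ATV:RSV (horizontal axis) for the 10 genes, scaled by TMM (circles), by all UMIs of the mouse (squares) and by the number of cells (triangles); bars are SE, filled symbols passed the test and dotted lines are the medians of all genes tested at -0.05, -0.29 and 0.32. For 7 genes the point lies left of the dotted line of their colour under every scaling, while Tgfbr2, Smad2 and Nrros lie near it.

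In molecules per cell, the 3 genes that were called higher on that scale did not overlap with the controls, as was the case for 49.4% of all genes tested. Nrros had 807, 649 and 711 UMIs per 1000 cells in the controls and 1049.6, 876 and 827 at day 1. Tgfbr2 rose from 1387 ± 61.7 (SD, n = 3) to 1736 ± 69.8 UMIs per 1000 cells, and Smad2 from 237 ± 25.6 to 305 ± 16.0. For the other 7 genes the groups overlapped. Tgfb1 had 2519 ± 181 UMIs per 1000 cells in the controls and 2622 ± 104 at day 1, and Smad7 had 2948 ± 104 and 2686 ± 291.

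The share of cells with at least 1 UMI was compared at an equal depth of 3385 UMIs per cell (expected share after random thinning), which left out 3.93% to 17.8% of the cells of a mouse. On this scale all 10 genes were lower at day 1 than in every control, as were 46.5% of all genes tested. The scale takes no TMM factor (0.878 to 0.906 at day 1, 1.05 to 1.06 in ATV:RSV). A gene unmoved under TMM therefore lies lower on it at day 1, as it does against all UMIs of a mouse. That depth kept 6410, 5585 and 5722 of 7020, 6794 and 6487 cells in the controls. At day 1 it kept 6838, 6993 and 5651 of 7118, 7343 and 5998 cells. The share of cells with a Tgfb1 UMI was 72.5%, 72.7% and 71.6% in the controls and 58.8%, 59.4% and 59.7% at day 1. For Smad3 it was 10.9%, 10.9% and 11.0% in the controls and 6.9%, 6.7% and 6.7% at day 1. Tgfbr2, which the test did not call, went from 51.9% ± 1.31 to 46.1% ± 0.526, Smad2 from 12.3% ± 0.617 to 10.8% ± 0.279, and Nrros from 32.5% ± 1.06 to 28.3% ± 1.79. Without thinning, the Tgfb1 share was 83.6% ± 1.90 and 84.4% ± 0.879, and that of Tgfbr2 68.2% ± 1.70 and 75.5% ± 0.933. Nrros is a myeloid gene, and an Nrros UMI was found in 75 of 107 cells with 3 or more oligodendrocyte markers (70.1%, median 10826 UMIs), in 22 of 41 with neuron markers (53.7%, 8413 UMIs) and in 4 of 20 with erythrocyte markers (20%, 9048.5 UMIs), against 47.3% of all cells (5854 UMIs). Of these cells 106, 40 and 11 also had UMIs of at least 5 microglial markers, so they give no background level free of microglial RNA. Pathway transcripts were found in nearly every cell: 0.0416% to 0.70% of the cells of a mouse had no UMI of any of the 10 genes.

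RefSeq promoters on GRCm38.p6 (the 250 bases before the start site) were used for 6 of the 10 genes. Those of Smad2, Smad4, Smad7 and Skil were not used, so the letters below do not cover them. Of the 6, 4 are shown because they put genes that were lower together beside genes that were not called. Tgfb1 (chr7:25686752-25687001, plus strand) and Smad3 (chr9:63757995-63758244, minus strand) were lower at day 1. Tgfbr2 (chr9:116175364-116175613, minus strand) and Nrros (chr16:32165595-32165844, minus strand) were not called. Each is written 5′ to 3′ with the short SMAD element, CAGAC on either strand (GTCTG), in capitals.
Tgfb1: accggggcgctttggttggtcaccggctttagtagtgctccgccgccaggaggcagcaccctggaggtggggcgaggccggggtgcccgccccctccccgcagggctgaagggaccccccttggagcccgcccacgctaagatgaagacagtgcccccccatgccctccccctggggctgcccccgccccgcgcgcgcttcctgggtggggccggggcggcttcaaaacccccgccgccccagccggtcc
Smad3: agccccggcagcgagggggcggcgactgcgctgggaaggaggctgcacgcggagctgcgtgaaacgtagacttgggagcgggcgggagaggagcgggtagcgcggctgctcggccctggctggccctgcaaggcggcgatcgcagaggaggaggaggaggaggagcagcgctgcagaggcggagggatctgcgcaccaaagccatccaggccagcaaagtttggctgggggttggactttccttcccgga
Tgfbr2: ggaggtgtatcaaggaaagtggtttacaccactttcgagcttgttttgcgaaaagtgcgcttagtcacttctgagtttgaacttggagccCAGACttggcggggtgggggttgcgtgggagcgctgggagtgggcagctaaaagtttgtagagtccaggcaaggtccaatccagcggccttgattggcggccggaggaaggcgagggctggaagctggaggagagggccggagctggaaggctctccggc
Nrros: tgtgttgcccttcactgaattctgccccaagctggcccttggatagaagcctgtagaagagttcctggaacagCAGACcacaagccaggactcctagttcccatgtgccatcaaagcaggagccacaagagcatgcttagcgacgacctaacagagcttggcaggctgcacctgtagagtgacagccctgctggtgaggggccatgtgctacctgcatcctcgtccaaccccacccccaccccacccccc

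That element occurred once in Tgfbr2 and once in Nrros, at 160 and 177 bases before the start site. It was in none of the other 4 promoters used (Tgfb1, Tgfbr1, Smad3 and Ski). It occurred in 40.7% of the 10566 promoters of tested genes. The palindrome GTCTAGAC, which does not contain it, and the PU.1 motif GAGGAAGT, searched on both strands, were in none of the 6, and in 0.189% and 2.56% of promoters of tested genes. The GC content of the 6 promoters was 58.4% in Tgfbr2 and Nrros and 69.2% to 87.6% in the others, against a median of 59.6%. These are descriptions of letters in a short window and say nothing of binding.

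At day 7 none of the 10 genes was called against ATV:RSV, where 3.98% of all genes were. At days 14 and 28 none was called either, where 0.4% and 0% of all genes were. The largest difference at day 7 was that of Nrros, which had 95.1, 97.8 and 89.5 CPM against 116, 106 and 110.0 CPM in the controls. All 3 day 7 mice lay below the controls, the log2 fold change was -0.24 (95% CI -0.38 to -0.10), and the adjusted p of 0.0559 missed the threshold. With the batch as a block the adjusted p was 0.0472, and over all alternatives it ranged from 0.00935 to 0.225. On CPM, Tgfbr1 was the other gene whose day 7 mice (747, 733 and 661) all lay below the controls, with a log2 fold change of -0.11 (adjusted p 0.463). Over all genes 10.2% lay lower at day 7 without overlap. On UMIs per 1000 cells both genes lay wholly below the controls too, as did 15.9% of all genes, and in thinned shares of cells both of them, Smad2 and Smad3 did, as did 27.4%. Other measures, taken without TMM scaling, lay outside the range of the controls at day 7 as well. All 3 day 7 mice had more mitochondrial UMIs than every control (medians above). In UMIs per 1000000, the summed markers of neurons were 5.86 to 7.42 against 8.81 to 10.9, of endothelium 14.2 to 16.1 against 20.2 to 27.4, of astrocytes 6.00 to 7.58 against 9.54 to 11.7 and of macrophages 14.98 to 15.9 against 17.5 to 21.1, while those of dendritic cells were 2.13 to 2.33 against 1.69 to 2.07. The summed microglial markers were 21585 to 22120 against 23420 to 25090, with 3 of 10 called lower (0.996% of all genes were). These sums take no TMM factor (0.982 to 0.995 at day 7, 1.05 to 1.06 in ATV:RSV), so a gene unmoved under TMM lies lower on them at day 7. In the test, none of 5 neuron, 5 astrocyte, 8 macrophage and 3 tested dendritic cell markers was called at day 7. Of 5 endothelial markers 1 was called lower. Without the 726 cells with markers of another type, the log2 fold change of Nrros at day 7 was -0.24 (adjusted p 0.0543), and the part of the mitochondrial share was not tested. The intervals of the 10 genes at day 7 reached from -0.38 at the lowest to 0.23 at the highest.

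From day 1 to day 7 most pathway genes moved back. Of the 10, 7 were called higher at day 7 than at day 1 and 1 was called lower; of all genes 66.9% were called, 33% higher and 33.9% lower. The 7 were those that were lower at day 1. Smad7 rose most, from 321 ± 15.1 (SD, n = 3) to 480.4 ± 19.0 CPM, a log2 fold change of 0.58 (SE 0.0694, adjusted p 1.89e-06), and Smad4 rose by 0.55 from 34.9 ± 2.48 to 51.1 ± 3.30 CPM. Tgfbr1 rose least, by 0.19 (SE 0.0660, adjusted p 0.0178), from 625 ± 48.2 to 714 ± 46.3 CPM, and lost its call with no filter on low counts and without day 1 ATV:4D9 mouse 3, day 7 mouse 1 or day 7 mouse 2 (adjusted p 0.0613 to 0.107). Nrros went the other way, from 109.5 ± 6.82 to 94.1 ± 4.25 CPM, and fell by 0.22 on the log2 scale (adjusted p 0.00749), a call lost against all UMIs of a mouse (-0.07, adjusted p 0.351). Against the number of cells, by contrast, 4 genes were called lower at day 7 (Nrros, Smad2, Tgfbr2 and Tgfbr1) and none higher, where 54.3% of all genes were lower.

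After day 7 the levels stayed near the controls. No pathway gene was called between days 7 and 14 or between days 14 and 28, where 0.912% and 0% of all genes were. Smad7 stood highest above the controls, with 533, 501 and 481 CPM at day 14 and 465, 547 and 511 CPM at day 28, but its range overlapped with that of the controls on both days. Its log2 fold changes of 0.16 on both days had 95% intervals, not adjusted for the number of genes, of 0.01 to 0.30 and 0.01 to 0.31, and adjusted p of 0.875 and 1.00. On CPM, Smad3 at day 14 (29.8, 29.1 and 30.3) was the only one of the 10 whose values lay wholly on one side of the controls at day 14 or 28, with a log2 fold change of -0.13 and an adjusted p of 0.827. Over all genes 5.16% lay lower without overlap at day 14. On UMIs per 1000 cells, Smad7 lay wholly above the controls (2948 ± 104) at day 14 (3300 ± 315; 3.12% of all genes did) and at day 28 (3469 ± 321; 8.05%), as did Skil at day 28. In thinned shares of cells, Smad2 and Smad3 lay wholly below the controls at day 14, as did 13.8% of all genes. Before adjustment, limma-voom gave a p under 0.05 to 2 of the 10 genes at day 14 (Smad3 and Smad7; 5.4% of all genes) and to 1 at day 28 (Smad7; 4% of all genes), and after adjustment edgeR and DESeq2 called none on either day.

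**Figure D3:**
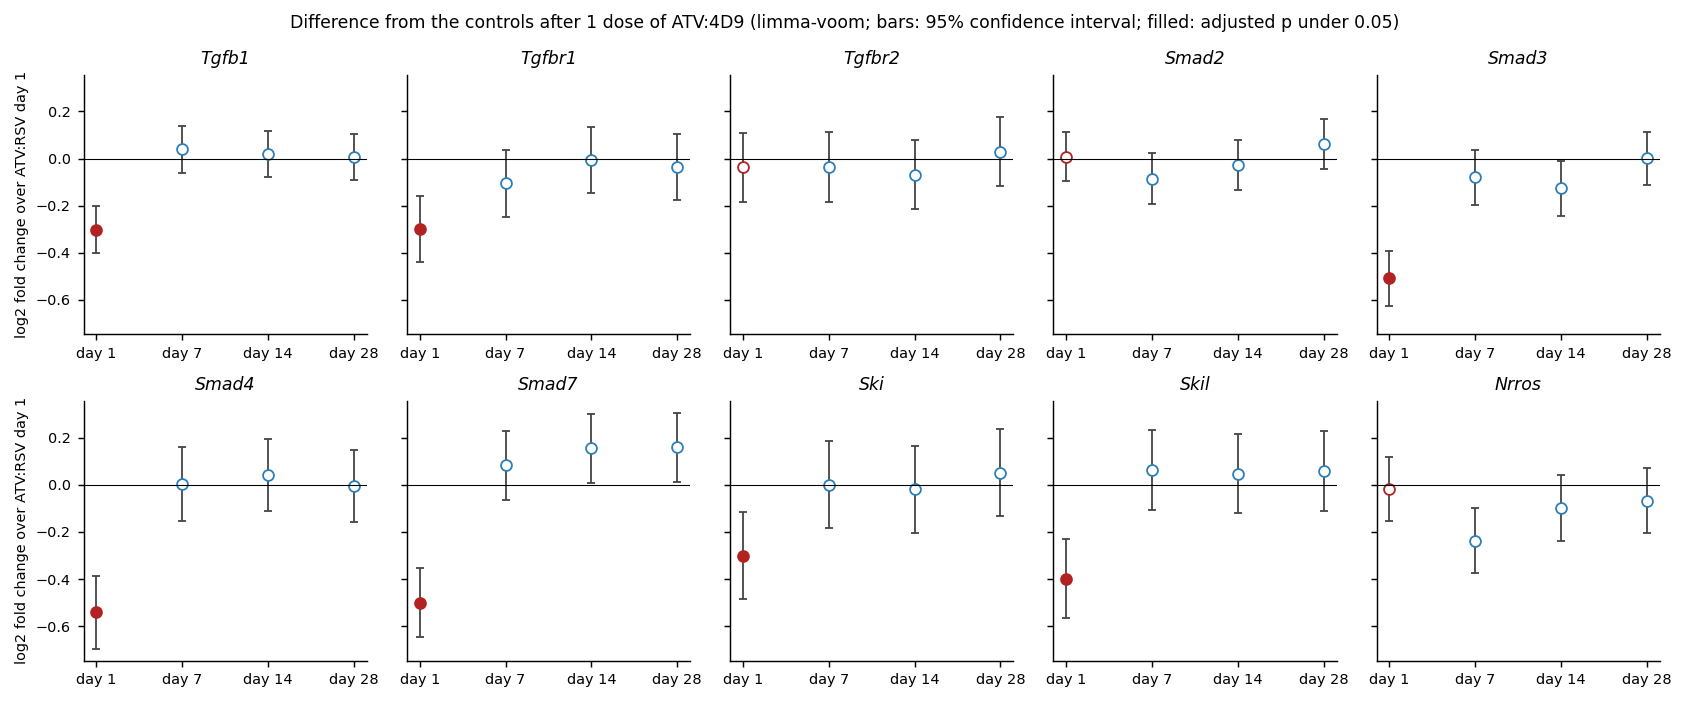
Log2 fold change of each gene over ATV:RSV day 1 (vertical axis) at days 1, 7, 14 and 28 after ATV:4D9 (horizontal axis), from limma-voom with 95% confidence intervals; filled symbols passed the test. There are 7 genes filled at day 1 and none at the later days, and Nrros has its lowest value, -0.24, at day 7.

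In 1 test over the 5 groups, 8 of the 10 genes differed (66.5% of all genes did). Smad7 (adjusted p 1.43e-06) and Smad3 (1.91e-06) had the lowest values and Nrros the highest among those called (0.0297). Nrros lost that call without ATV:RSV mouse 1, day 7 mouse 1 or day 7 mouse 3 (0.0546, 0.0615 and 0.130), and Ski without day 1 ATV:4D9 mouse 1 or 2 (0.114 and 0.111). Tgfbr2 (0.719) and Smad2 (0.144) were not called. Against the number of cells, where 9008 of 14260 genes were called, 6 of the 8 (Tgfb1, Tgfbr1, Smad3, Smad4, Ski and Skil) lost the call. Their adjusted p was 0.104 to 0.444, while Tgfbr2 (0.000349) and Smad2 (0.000691) gained it there. Both also gained it against all UMIs of a mouse (0.0125 and 0.000475), where 10373 genes were called. On TMM-scaled CPM the group mean was lowest at ATV:4D9 day 1 for the 7 genes above, with no call between the other groups in the comparisons made, whereas for Nrros day 7 was lowest.

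The deposited table placed each cell in 1 of 3 clusters, made from the same cells and genes, so levels by cluster are a description with no test. Cluster 0 held 48348 cells, cluster 1 33853 and cluster 2 19842, with median UMIs per cell of 6367, 4247 and 8970. Outside the day 1 group, cluster 0 had the highest median CPM of all 3 inhibitors. Skil differed most: the median over 12 mice was 348 CPM in cluster 0 and 212 in cluster 1, and it was lower in cluster 1 in 12 of 12 mice, with a mean log2 ratio of -0.68 ± 0.0756 (SD). Tgfb1 (435 and 347 CPM), Smad7 (529 and 449), Ski (225 and 197.5) and Nrros (113 and 101) were also lower in cluster 1 in all 12 mice. The receptors had the opposite order on CPM. Tgfbr1 had 757 CPM in cluster 0 and 859 in cluster 1 and was higher in cluster 1 in 12 of 12 mice, and Tgfbr2 (214 and 225) in 11 of 12. On UMIs per 1000 cells both receptors were lower in cluster 1 in the controls. Tgfbr1 had 5571 ± 308 in cluster 0 and 4202 ± 489 in cluster 1 there, and Tgfbr2 1592 ± 55.9 and 1097 ± 100. On CPM, Smad2, Smad3 and Smad4 were higher in cluster 1 in 3, 1 and 6 of 12 mice.

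On CPM, cluster 2 of the same 12 mice had the lowest level of Tgfbr1 and Smad4 in 12 of 12 mice. It had the lowest level of Tgfbr2 and Smad3 in 11, of Ski in 10 and of Smad2 in 8. Smad7 and Nrros were lowest there in 5 of 12 mice and Tgfb1 in 4. Skil was lowest there in 1 of 12 only, since cluster 1 was lower. On UMIs per 1000 cells the order differed, and in the controls cluster 1 had the lowest mean of Tgfbr1 and Smad4. In clusters 0, 1 and 2 in turn, Tgfbr1 had 5571 ± 308, 4202 ± 489 and 5723 ± 310 there. Smad4 had 386 ± 32.1, 256 ± 28.8 and 376 ± 97.8. Of all cells in cluster 2, 92.8% came from day 1 mice, and a mouse outside day 1 had far fewer of them, so the low genes there rest on as few as 12 UMIs of Smad3 in a day 14 mouse and 16 in a control mouse.

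**Figure D4:**
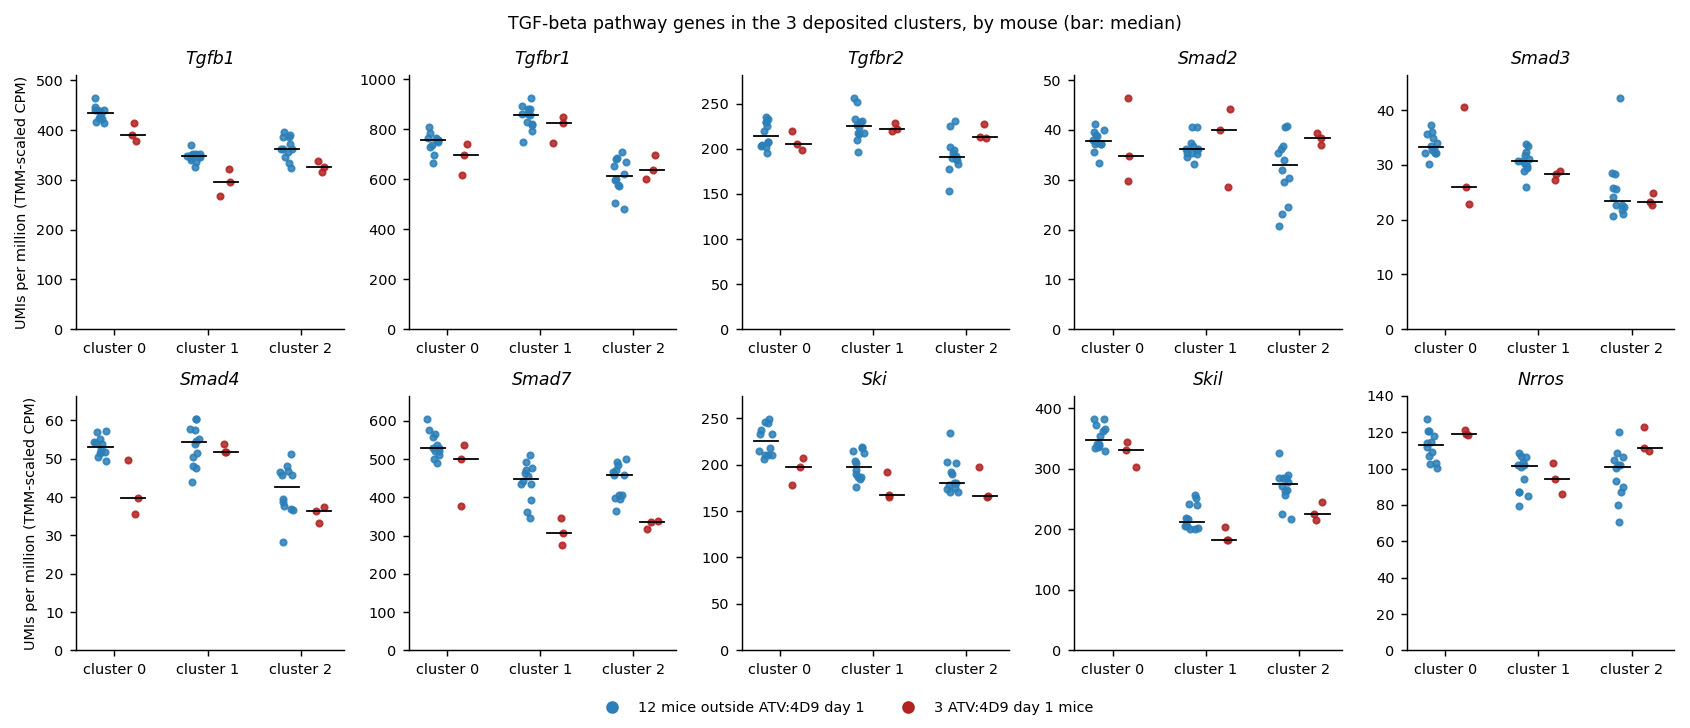
Level of each gene in the 3 deposited clusters (horizontal axis), in TMM-scaled CPM (vertical axis, from 0), 1 point per mouse with at least 50 cells of that cluster; blue points are the 12 mice outside day 1 ATV:4D9, red points the 3 day 1 mice, bars the medians. On this scale Skil, Tgfb1 and Smad7 are higher in cluster 0 than in cluster 1, and Tgfbr1 is higher in cluster 1.

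Within a cluster the day 1 mice were set beside the controls. In cluster 0, Tgfb1, Tgfbr1, Smad4 and Ski were lower at day 1 without overlap (20.1% of all genes were), and in cluster 1 Tgfb1, Tgfbr1, Smad3, Smad7 and Nrros were (18% of all genes). In cluster 2, where most day 1 cells lay, 8 of the 10 genes overlapped. Tgfbr1 had 646 ± 48.0 CPM there at day 1 and 609.6 ± 40.6 in the controls, and Smad3 had 23.7 ± 1.12 and 24.4 ± 3.69. Smad7 was lower in cluster 2 at day 1 (331 ± 11.8 against 386 ± 18.7 CPM), as were 10.7% of all genes, and Nrros was higher (115 ± 7.33 against 100.3 ± 11.5), as were 33.2%. The 3 day 1 mice had few cells in clusters 0 and 1, with as few as 19 UMIs of Smad3 in a mouse.

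The other genes of the pathway were read from 5 lists. Of 13 tested genes for ligands and their activation, 6 were higher and 1 was lower at day 1, where 34.7% of all genes were higher and 34.6% lower (69.2% in all). Mmp2, a protease that can release latent TGF-beta, rose from 10.7 ± 0.904 to 30.5 ± 1.83 CPM (log2 fold change 1.50, adjusted p 2.04e-10), and Plau, the urokinase that activates plasmin, from 12.04 ± 0.747 to 23.9 ± 1.87 (0.99, 5.00e-07). Mmp14 (0.38) and Thbs1 (0.33), a matrix protein that opens the latent complex, rose less and lost their calls in 3 and 5 alternatives. The integrin chain Itgb5 fell from 856 ± 12.2 to 615 ± 43.5 CPM (-0.48, adjusted p 1.33e-06; lost in 1 alternative). At day 7 Mmp2 (0.50, adjusted p 0.00394) and Furin (0.25, adjusted p 0.0203), the protease that cuts the ligand precursor, were higher, with the call lost in 1 and 7 alternatives, and no gene of the list was called at day 14 or 28. Of all genes tested, 2.99% were called higher and 0.996% lower at day 7.

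Of 12 tested receptors and receptor partners other than Tgfbr1 and Tgfbr2, 7 were lower and 2 were higher at day 1, with a median log2 fold change of -0.59; the 9 called stand beside 69.2% of all genes. The activin receptor Acvr2b fell most, from 26.3 ± 0.529 to 10.1 ± 1.18 CPM (-1.38, adjusted p 1.04e-08), followed by the receptor-associated protein Tgfbrap1 (-0.95), the activin receptor Acvr2a (-0.80) and the co-receptor Eng (-0.73). The type I receptor Acvrl1, which feeds the BMP branch, rose from 22.7 ± 1.65 to 34.3 ± 2.89 CPM (0.59, adjusted p 4.41e-06), and Fkbp1a, which holds type I receptors inactive, rose by 0.68. At day 7 only Bambi, a decoy receptor, was called, higher by 0.68 (adjusted p 0.0475), and it lost that call in 13 alternatives.

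Of 40 tested SMADs and SMAD regulators, 20 were lower and 12 higher at day 1 (34.6% and 34.7% of all genes). Those that fell most were the coactivator Ep300 (-0.75), the kinase adaptor Tab2 (-0.73), the SMAD anchor Zfyve9 (-0.72) and Smad1 of the BMP branch (-0.70, from 53.2 ± 1.99 to 32.8 ± 1.48 CPM, adjusted p 9.96e-09). Those that rose most were Rbl1, a pocket protein of the cell cycle that SMADs can bind (2.04, from 9.53 ± 0.387 to 39.4 ± 1.62 CPM, adjusted p 1.77e-12), the nuclear exporter Xpo1 (1.22), the ubiquitin ligase Stub1 (0.99) and the receptor-binding protein Strap (0.91). At day 7 the corepressor Tgif1 was higher (0.49, adjusted p 0.000272), and Xpo1 (-0.48) and Snx6 (-0.24) were lower, so Xpo1 was above the controls at day 1 and below them at day 7.

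Of 22 tested genes known as targets of TGF-beta in many cell types, 10 were higher and 6 lower at day 1, beside 34.7% and 34.6% of all genes. The list shares Smad6, Pmepa1 and Tgif1 with the regulators and Ltbp3 with the ligand list, and several of its members respond to other signals too. The cell cycle inhibitor Cdkn1a rose from 49.7 ± 13.7 to 241 ± 31.8 CPM (2.30, adjusted p 8.37e-09), the stress gene Gadd45b by 1.80 and the transcription factor Klf10 by 1.51. The integrin chain Itgae (-1.32), Rgs1 (-0.88), Cdkn2b (-0.75) and Tsc22d1 (-0.69) fell, the last 2 with the call lost in 1 alternative each. Itgae and Cdkn2b were near the floor, at 2.13 ± 0.601 to 0.855 ± 0.217 CPM and 1.22 ± 0.0583 to 0.732 ± 0.133 CPM. Rgs1 went from 253 ± 33.5 to 137 ± 11.85 CPM and Tsc22d1 from 16.6 ± 1.72 to 10.3 ± 1.40 CPM. At day 7 Gadd45b (0.82, adjusted p 0.0302) and Cdkn1a (0.78, adjusted p 0.0202) were still higher, and Myc was lower (-0.63, adjusted p 0.0422). These 3 calls were lost in 5, 4 and 10 alternatives.

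Of 30 genes that microglia are known to need TGF-beta to express, all tested, 25 were lower and 3 higher at day 1 (34.6% and 34.7% of all genes), with a median log2 fold change of -0.61. The purinergic receptor P2ry12 fell from 2052 ± 20.7 to 828 ± 49.1 CPM (-1.31, adjusted p 3.84e-12). Upk1b (-1.86), the ribonuclease Ang (-1.33) and the lens-type crystallin Crybb1 (-1.32) fell at least as far. The complement gene C1qa (0.37), Olfml3 (0.38) and Pros1 (0.15) were higher; Pros1 lost its call in 4 alternatives and Olfml3 in 1, and the sign of Pros1 turned in 1 alternative. At day 7, 8 of the 30 were lower and 1 higher (0.996% and 2.99% of all genes). Lag3 rose from 269 ± 31.8 to 567 ± 37.8 CPM at day 7 (1.08, adjusted p 1.44e-05), and Gas6 (-0.38) and Upk1b (-0.36) were lower, with the call lost in 7 and 4 alternatives. No gene of the 5 lists was called against the controls at day 14 or 28. On UMIs per cell, the genes named here at day 1 kept their direction. They were picked as the highest and lowest called changes under TMM, so this does not carry over to the other genes of the lists. Itgb5 lay at -0.12 on that scale. The counts and medians of the 5 lists are given under TMM only.

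**Figure D5:**
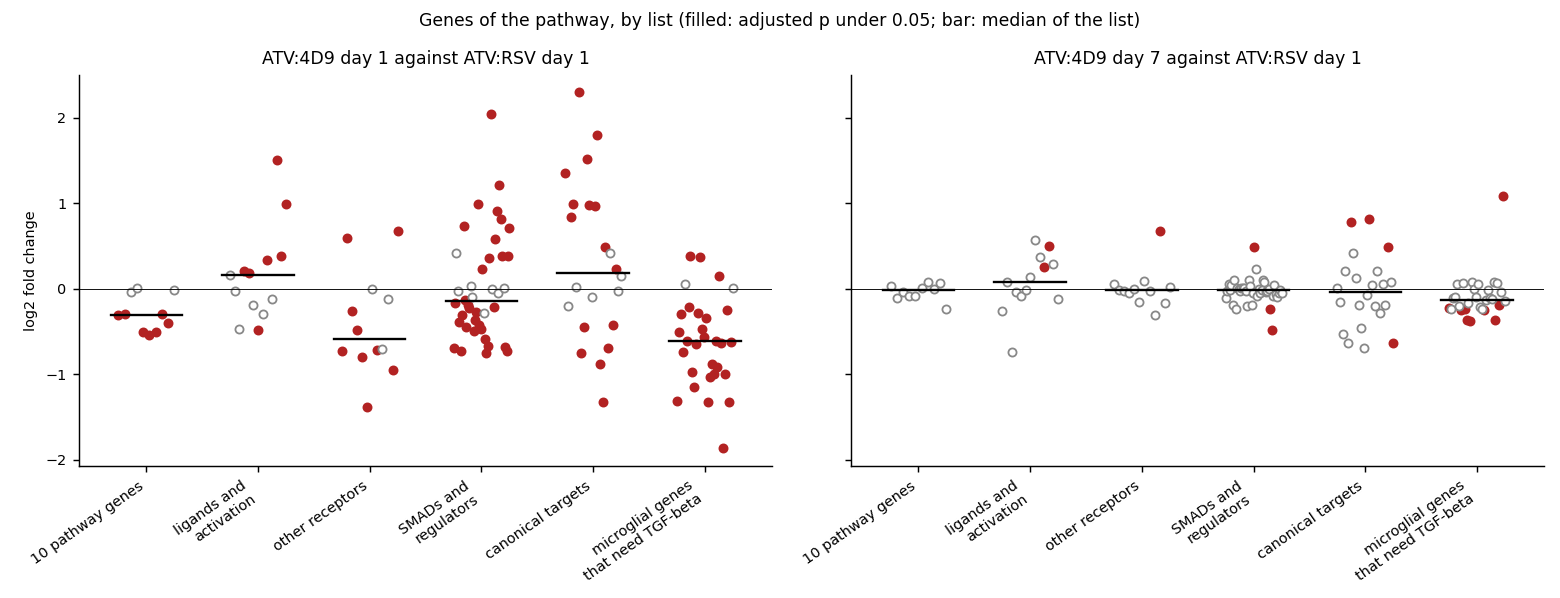
Log2 fold change over ATV:RSV day 1 (vertical axis) of each gene of the pathway lists (horizontal axis) at day 1 (left) and day 7 (right) after ATV:4D9; red points passed the test, open points did not, and bars are list medians. At day 1 the 10 pathway genes lie between -0.54 and 0.01, with Cdkn1a (2.30) and Rbl1 (2.04) as the highest points of the other lists and Upk1b (-1.86) as the lowest.

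The genes whose levels most resembled 4 of the pathway genes were sought over the 12 mice outside day 1, by Pearson's r of log2 CPM, as a description of libraries that share batches. For Tgfb1 they were Tfe3 (r = 0.914), Sbno2 (0.861) and Lrch4 (0.852), for Tgfbr1 Ltc4s (0.919), Bicra (0.915) and Xrcc3 (0.884), for Smad3 Gm36529 (0.859), K230015D01Rik (0.845) and B4gat1 (0.842), and for Smad7 Fbxw8 (0.869), Hnrnpl (0.830) and Gm9484 (0.828). Over all 15 mice, of which the 3 day 1 mice stand apart, Tfe3 again came first for Tgfb1 (0.980), Bicra for Tgfbr1 (0.948), Apobec1 for Smad3 (0.977) and Plcg1 for Smad7 (0.970). Tfe3 and Lrch4 were among the 3 nearest to Tgfb1, and Bicra among those nearest to Tgfbr1, in both.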

How the data were processed

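The 10 genes and the lists of other pathway genes and markers were chosen with earlier results of these data known. The authors mapped 3′ reads to mm10 with Cell Ranger (the sources used here differ on its version), counted UMIs per gene and cell and clustered the cells with Seurat. The deposited matrix holds these UMI counts, not normalized, for 102043 cells, and per the file headers the deposited cell table holds UMI counts and the percent of mitochondrial UMIs per cell, the cluster and the mouse. How doublets were treated is not given in the sources used here. No doublet caller was run. The recomputed sums equalled the deposited UMIs in 102043 cells. The labels name 1 further control animal, not analysed here. Groups and batches came from the labels.

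Counts were summed per mouse, filtered with filterByExpr (minimum count 10, minimum total count 15), given TMM factors and fitted by limma-voom as group means over the 15 mice (limma 3.58.1, edgeR 4.0.16, R 4.3.3), with Benjamini-Hochberg adjustment over 14260 genes. Alternatives were edgeR's quasi-likelihood test, DESeq2 1.42.0, 3 other scalings, 2 other filters, the batch as a block, leaving out each mouse, and leaving out cycling, foreign-marker or the richest 5% of cells; leaving out the 3 day 1 ATV:4D9 mice was added after the data were seen. The tests were tried on simulated data first. Shares of cells are the shares expected after random thinning to 3385 UMIs, the 10th percentile, computed exactly. Cluster levels use TMM over mouse and cluster sums of at least 50 cells.

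From the lists, the text names up to 4 highest and 4 lowest called genes at day 1 and 2 and 2 at day 7 (10 UMIs or more in all 6 mice compared), and the 3 nearest genes by correlation. Of the genes so chosen, 1 is not reported here. The labels say that each batch held all 5 conditions, so the batch pairs the mice; across genes, deviations from the group mean had an average r of 0.0539 over 30 same-batch pairs and of -0.0267 over 60 other pairs. Libraries of 1 group were not copies of each other: their counts differed at a chi-square per degree of freedom of 11.5 to 31.6. Gene positions are from GENCODE M21 (mm10), 1-based, all protein coding, with no overlapping gene of the matrix; promoters are RefSeq GRCm38.p6, 1 per gene, the start nearest to the GENCODE gene's 5′ end.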

Additional observations from a re-analysis of the deposited data

Results flagged for a closer look

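For 8 of the 10 genes the difference from ATV:RSV at day 7 was not the same as that at day 1, by the direct limma-voom test of day 7 against day 1 (both use the same controls, which drop out of it). Of all genes tested, 66.9% were called there. The log2 change from day 1 to day 7 was 0.34 for Tgfb1, 0.19 for Tgfbr1, 0.43 for Smad3, 0.55 for Smad4, 0.58 for Smad7, 0.30 for Ski, 0.46 for Skil and -0.22 for Nrros. On TMM-scaled CPM, Nrros was the only one of the 8 with a lower level at day 7 than at day 1. Against the number of cells, Tgfb1, Smad3, Smad4, Smad7, Ski and Skil lost the call, and Tgfbr1 was called lower at day 7. Groups of 3 mice were not examined for single mice that lie far from the others.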

How the results depend on the processing

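At day 1, 7 genes were called under edgeR, DESeq2, the DESeq2 size factors, both other filters, the batch block and each change of the cells, and in all 15 fits without 1 mouse. Library size alone gave 10, where 74.7% of all genes were called. Scaling by the number of cells gave 3 at day 1, 4 at day 7 against day 1 and 4 over the 5 groups, of which 2 (Tgfbr2 and Smad2) were not called before. Of all 14260 genes, that scaling called 8945, 9015 and 9008 in turn. From day 1 to day 7 the count was 7 with library size alone and with no filter and 7 to 8 without 1 mouse; over the 5 groups it was 10 with library size alone and 7 to 8 without 1 mouse. At day 7, 1 gene (Nrros) was called with DESeq2, with at least 1 CPM in 3 mice, with the batch block and without cells with a Mki67 or Top2a UMI, and 2 (Nrros and Smad2) with library size alone; without 1 mouse the count was 0 to 1, reaching 1 without day 1 ATV:4D9 mouse 1 or day 14 mouse 1. The block changed no other call, and the cause of these changes was not tested. Without the 3 day 1 ATV:4D9 mice, added after the data were seen, none was called at days 7, 14 and 28. Days 14 and 28 and the later steps had 0 calls throughout.

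By the number of cells the day 1 log2 fold changes turned positive for Tgfb1 (0.0596), Tgfbr1 (0.0627), Tgfbr2 (0.324), Ski (0.0608) and Nrros (0.343). Genes near 0 changed sign more freely. Smad2 at day 1 was -0.232 by library size alone, -0.0105 with at least 1 CPM in 3 mice, -0.0601 without cycling cells, and -0.0153 to 0.0459 without 1 mouse. Nrros at day 1 was 0.00561 with DESeq2, 0.00488 with its size factors, 0.0115 with no filter, 0.0284 without cycling cells and -0.0609 to 0.0164 without 1 mouse.

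At day 7, by library size alone and by the number of cells in turn, Tgfb1 was -0.0569 and -0.065, Smad4 -0.0912 and -0.0958, Smad7 -0.0128 and -0.0215, Ski -0.0949 and -0.103, and Skil -0.0328 and -0.0412. Smad4 was -0.00286 with no filter and -0.0011 with at least 1 CPM in 3 mice. Ski was -0.00638 and -0.00463 with those filters, -0.000595 with the batch block, -0.000179 without cycling cells and -0.00162 without the day 1 ATV:4D9 mice. Without 1 mouse Tgfb1 lay between -0.0022 and 0.0623, Smad4 between -0.0461 and 0.048, and Ski between -0.0757 and 0.0505. None of these day 7 values passed the test. At the other thinning depths and without thinning all 150 shares moved by more than 1 SD, since a share rises with depth. At depths of 2820 and 4383 UMIs every pathway gene lay lower at day 1 than in all controls. Without thinning the day 1 shares overlapped with the controls or lay above them. With 3 mice a group, a gene that was not called may still differ by any amount inside its interval.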
